A study of Mus musculus with 8 samples.

Results

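A set of 10 genes that mark the main neurons of the cerebellum was followed in bulk RNA of aging mouse brain. The genes were picked by name for the cells that express them, with earlier results of these libraries known: Pcp2, Car8, Ppp1r17, Itpr1 and Slc1a6 for Purkinje cells, Cbln1, Cbln3 and Gabra6 for granule cells, and Zic1 and Zic2 for the granule lineage. All 10 were among the 22430 genes in the count table, and all 10 passed the minimum of more than 5 counts in at least 4 libraries, as did 16730 genes in total.

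The cerebellar cortex is built around Purkinje cells, large inhibitory neurons that form its sole output, and granule cells, small and very numerous excitatory neurons whose parallel fibres synapse on Purkinje dendrites. Cerebellins released by granule cells bridge presynaptic and postsynaptic receptors at these synapses, while in the Purkinje spine calcium is released from internal stores through the inositol trisphosphate receptor. The circuit is known for motor coordination and motor learning. Several of the genes are not restricted to the cerebellum, and Itpr1, for example, is also expressed in hippocampus, cortex and striatum.

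Libraries were made from 4 male C57Bl/6JRj mice of 6 months (6m) and 4 of 24 months (24m), with no treatment or engineered allele in either age, and each library held the RNA of a single animal. The tissue was a brain hemisphere that the labels call whole brain, with no region dissected, and the share of cerebellum in each piece was not given in the sources used here. Levels are therefore averages over all regions, and in such bulk RNA fewer cells of a type and less RNA per cell cannot be told apart. Totals were 63460940 to 103462414 counts per library, and a single member in a single library rested on 564 to 68502 counts, so counting error was small beside the spread between animals. The deepest library, 24m replicate 1, also stood apart from the other aged libraries in composition: a chi-square comparison of its counts with theirs gave 179 to 417 per degree of freedom, against at most 61.2 among the other 3.

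The base composition upstream of the start site differed widely among these genes, and the sequences of 4 of them are shown: both cerebellins, as relatives with differing values below, and Pcp2 and Gabra6, as a Purkinje and a granule cell gene known for high cell specificity. Each is the 250 bases of GRCm39 before the GENCODE canonical start, all on the minus strand, at chr8:3675050-3675299 for Pcp2, chr8:88199262-88199511 for Cbln1, chr14:56121850-56122099 for Cbln3 and chr11:42211911-42212160 for Gabra6. The Pcp2 window lies inside the annotated span of Pcp2, which runs to 3675545 beyond the canonical start, and inside the gene Pet100, described below. Capitals mark AGGTCA, the half-site letters bound by ROR nuclear receptors, of which Rora is the family member needed for Purkinje cell maturation.
Pcp2: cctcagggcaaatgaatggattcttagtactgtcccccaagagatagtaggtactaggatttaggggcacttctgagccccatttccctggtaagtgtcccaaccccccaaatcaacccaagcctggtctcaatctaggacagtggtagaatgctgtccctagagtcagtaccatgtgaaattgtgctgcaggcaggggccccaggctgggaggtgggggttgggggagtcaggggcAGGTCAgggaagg
Cbln1: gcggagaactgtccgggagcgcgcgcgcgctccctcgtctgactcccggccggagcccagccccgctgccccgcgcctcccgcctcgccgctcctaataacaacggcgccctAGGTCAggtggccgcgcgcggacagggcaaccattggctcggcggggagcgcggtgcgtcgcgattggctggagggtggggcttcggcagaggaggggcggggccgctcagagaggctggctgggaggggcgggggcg
Cbln3: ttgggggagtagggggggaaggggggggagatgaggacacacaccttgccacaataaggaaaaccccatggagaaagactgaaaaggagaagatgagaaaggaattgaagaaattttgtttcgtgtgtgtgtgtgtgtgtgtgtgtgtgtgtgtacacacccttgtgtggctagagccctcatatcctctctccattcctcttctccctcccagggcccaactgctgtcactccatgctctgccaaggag
Gabra6: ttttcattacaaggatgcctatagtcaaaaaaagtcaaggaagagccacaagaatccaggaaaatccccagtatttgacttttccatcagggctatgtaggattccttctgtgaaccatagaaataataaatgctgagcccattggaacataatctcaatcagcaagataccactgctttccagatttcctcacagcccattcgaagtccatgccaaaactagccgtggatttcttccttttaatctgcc

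The Cbln1 window was 76.0% G and C and held 34 CpG dinucleotides, more than 97.6% of 16573 windows of the same length, whereas Cbln3 held 1 CpG, Gabra6 held 2 and Pcp2 held none. The median over all windows was 11 CpG and 56.0% G and C. Among the other members, Zic1 held 27 CpG, Itpr1 and Zic2 18 each, Slc1a6 17, Car8 10 and Ppp1r17 3. AGGTCA, searched like the other motifs on both strands, was found in Pcp2 with its first base at -13 from the start and in Cbln1 with its first base at -138, in 2 of 10 members against 12.0% of all windows. The E-box letters CAGATG, a form bound by NeuroD factors, were in 0 of 10 members and 11.9% of windows. The TATA box letters TATAAA were likewise in 0 of 10, against 8.08% of windows. No matches overlapped in the members, and a match describes letters only.

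Across the 10 genes the prevailing direction was upward with age. By edgeR's quasi-likelihood test, a call requiring an adjusted p no higher than 0.05 and a change on the log2 scale of at least 0.58 in size, 7 members were called higher at 24m, 0 were called lower and 3 were not called. DESeq2 and limma-voom gave the same 7 and 0 as counts, and at an unadjusted p under 0.05 there were also 0 lower. The count higher was 5 with DESeq2 on quantile-normalized counts, 6 with the length trend removed and 4 with the GC trend removed. Over all 16730 tested genes the same rule called 43.6%, with 25.3% higher and 18.3% lower. The 7 were Itpr1, Car8, Ppp1r17, Cbln3, Gabra6, Zic1 and Zic2. In those 7, every 24m library lay above every 6m library, a separation seen in 28.4% of all tested genes, and no member had all its 24m libraries below, as 26.8% of all genes did. The median log2 fold change was 0.68 for the members, which ranged from -0.53 to 1.69, and -0.0034 for all genes, whose quartiles were -0.47 and 0.63. The 3 that were not called, Pcp2, Slc1a6 and Cbln1, were the most abundant members per length in 6m. The libraries as a whole also differed between ages without overlap: mitochondrially encoded genes took 5.26 to 6.52% of counts in 6m and 3.18 to 3.69% in 24m, and TMM factors were 0.887 to 0.957 and 1.00 to 1.13. Scaled by library totals alone, with no TMM factors, 7 members were called higher and 0 lower. The part of the mitochondrial share in the changes of the members was not tested.

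**Figure D1:**
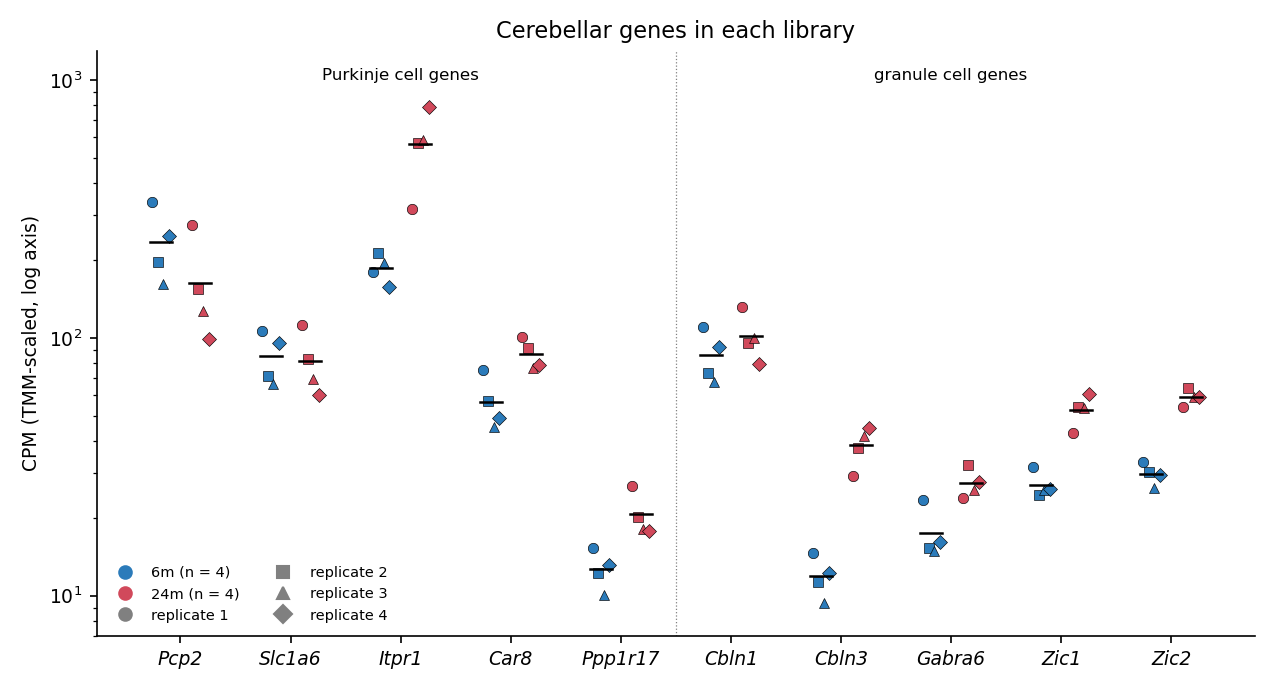
Level of each of the 10 genes in every library, in TMM-scaled counts normalised to library size (CPM, log axis). Colours are the ages (n = 4 each), point shapes the replicate numbers, and black lines the mean of each age. The ages do not overlap for Itpr1, Car8, Ppp1r17, Cbln3, Gabra6, Zic1 and Zic2, and they overlap for Pcp2, Slc1a6 and Cbln1.

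Among the Purkinje cell genes, the largest rise was that of Itpr1 (ENSMUSG00000030102, chr6:108190048-108528070, plus strand), the main neuronal inositol trisphosphate receptor and the calcium release channel of Purkinje spines. Its 6m libraries held 180, 214, 196 and 158 CPM and its 24m libraries 315, 569, 586 and 785 CPM, in replicates 1 to 4. Every aged library was above every young one, and 24m replicate 1 was the lowest of the aged. The mean went from 187 ± 23.9 to 564 ± 193 CPM (SD, n = 4 per age), and the log2 fold change was 1.59 with an SE of 0.24 (adjusted p = 0.000422). The call held in all 23 alternatives, and the value fell to 0.95 when the trend over exonic length was removed, the lowest of them. Itpr1 has 18328 exonic bases, the most of the 10.

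Car8 (ENSMUSG00000041261, chr4:8141533-8239088, minus strand) encodes a carbonic anhydrase relative without catalytic activity that binds the receptor made by Itpr1 and lowers its affinity for its ligand. Levels were 74.9, 57.2, 45.0 and 48.9 CPM in 6m and 100.4, 91.2, 76.5 and 78.5 CPM in 24m. The highest young library, 6m replicate 1, reached almost the level of the lowest aged one, without overlap. Means were 56.5 ± 13.3 and 86.7 ± 11.2 CPM, and the log2 fold change of 0.62 ± 0.16 (adjusted p = 0.00793) was close to the threshold. It fell under 0.58 when 6m replicate 3 (0.52), 6m replicate 4 (0.55) or, among the aged, 24m replicate 1 (0.55) was left out. It was not called either after removal of the length trend (0.13, adjusted p = 0.625) or of the trend over GC content (0.36, adjusted p = 0.139).

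Ppp1r17 (ENSMUSG00000002930, chr6:55989619-56009674, plus strand) encodes G-substrate, a phosphatase inhibitor that is phosphorylated by cyclic GMP-dependent kinase in Purkinje cells. Levels were 15.4, 12.2, 10.1 and 13.1 CPM in 6m and 26.8, 20.3, 18.1 and 17.8 CPM in 24m, and replicate 1 was the highest library of each age. Means of 12.7 ± 2.20 and 20.7 ± 4.18 CPM gave a log2 fold change of 0.71 ± 0.17 (adjusted p = 0.00477). Without 24m replicate 1 the value was 0.57 and under the threshold. It was 0.49 with DESeq2 on quantile-normalized counts and 0.51 after removal of the GC trend, and not called in either. Removal of the length trend instead raised it to 1.10, the highest of 23 alternatives.

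Pcp2 (ENSMUSG00000004630, chr8:3673371-3675545, minus strand), a regulator of G protein signalling and one of the most specific Purkinje cell transcripts, had the lowest log2 fold change of the 10. The young libraries held 336, 198, 162 and 249 CPM and the aged ones 274, 154, 127 and 98.6 CPM. Ages overlapped, with 24m replicate 1 above all young libraries but 6m replicate 1, while the other 3 aged libraries lay below all the young ones. Means were 236 ± 75.4 and 163 ± 77.0 CPM, and the log2 fold change of -0.53 ± 0.32 was not called (adjusted p = 0.166, 2 SE interval -1.17 to 0.10). Without 24m replicate 1 it was -0.89 and called lower (adjusted p = 0.00444), and without 6m replicate 1 it was -0.31 (adjusted p = 0.429). Without both libraries, an alternative added after the data were seen, Pcp2 was called lower at -0.66 (adjusted p = 0.0097). Of 23 alternatives 3 called it lower, the remaining case being the replicate block given below. Removal of the length trend brought the value to -0.05, the highest of the 23, and scaling by library totals alone to -0.33, with no call in either.

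Pcp2 lies within Pet100, a mitochondrial complex assembly gene on the opposite strand, whose own level went from 54.2 ± 8.25 to 23.7 ± 9.89 CPM (a log2 value of -1.19 ± 0.25, adjusted p = 0.00252). The kit marked the strand, but whether counting used it was not given in the sources used here, and if it did not, reads of the 2 genes cannot be told apart.

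Slc1a6 (ENSMUSG00000005357, chr10:78616181-78650614, plus strand) encodes the glutamate transporter of Purkinje dendrites and spines. Its levels were 106, 71.5, 66.1 and 95.3 CPM in 6m and 113, 82.5, 69.0 and 60.0 CPM in 24m, and the ages overlapped over almost their whole range. The log2 fold change was -0.07 ± 0.21 (adjusted p = 0.801), with means of 84.8 ± 19.2 and 81.0 ± 23.0 CPM. The 2 SE interval of -0.49 to 0.36 leaves room for a change of up to about those sizes in either direction, and the sign turned in 6 of 23 alternatives without a call.

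The cerebellins of granule cells differed in their values, a difference given as a ratio below and not tested. Cbln1 (ENSMUSG00000031654, chr8:88195033-88199261, minus strand), the secreted organizer of parallel fibre synapses, was measured at 110, 73.2, 67.2 and 92.0 CPM in 6m and at 132, 95.2, 99.5 and 79.5 CPM in 24m. The ages overlapped. The means of 85.7 ± 19.6 and 102 ± 22.2 CPM gave a log2 fold change of 0.25 ± 0.19 (adjusted p = 0.271, 2 SE interval -0.13 to 0.62), and none of the 23 alternatives called it.

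Cbln3 (ENSMUSG00000040380, chr14:56116370-56121849, minus strand), whose product is secreted only in complex with that of Cbln1, rose with the largest log2 fold change of the 10, within the error of that of Itpr1. The young libraries held 14.6, 11.3, 9.36 and 12.2 CPM and the aged ones 29.2, 37.3, 41.8 and 44.9 CPM. The lowest aged library, 24m replicate 1, stood far above the highest young one. Means were 11.9 ± 2.17 and 38.3 ± 6.83 CPM, and the log2 fold change of 1.69 ± 0.17 (adjusted p = 6.49e-05) was called in all 23 alternatives, over a range of 1.53 to 1.93. Per length, Cbln3 stood at 0.0879 ± 0.00653 of Cbln1 in 6m and at 0.251 ± 0.0887 of it in 24m, with the lowest aged library at 0.139 and the highest young one at 0.0973. Cbln3 overlaps Khnyn on the opposite strand only from 56121822, where Khnyn starts, to 56121849, the upper end of Cbln3. Khnyn went from 12.6 ± 0.737 to 19.2 ± 1.40 CPM (a log2 value of 0.60 ± 0.09, adjusted p = 0.000571), and the part of shared reads was not tested.

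Gabra6 (ENSMUSG00000020428, chr11:42197264-42211910, minus strand) encodes a GABA-A receptor alpha subunit that in the brain is found almost wholly in cerebellar granule cells and their cochlear counterparts, and no other annotated gene overlaps it. The young libraries held 23.4, 15.3, 14.9 and 16.1 CPM and the aged ones 24.0, 32.1, 25.7 and 27.6 CPM. Of the young libraries 3 were close together, and 6m replicate 1 reached nearly the level of the lowest aged library, 24m replicate 1. Means of 17.4 ± 4.01 and 27.3 ± 3.48 CPM gave a log2 fold change of 0.65 ± 0.16 (adjusted p = 0.00573). It fell to 0.56 without 24m replicate 2, to 0.50 with DESeq2 on quantile-normalized counts and to 0.36 after removal of the GC trend, each time under the threshold, and was 0.90 without both replicates numbered 1. Removal of the length trend instead raised it to 1.03, the highest of 23 alternatives.

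Both Zic genes, zinc finger transcription factors that granule cells keep from their progenitors into the adult, rose by nearly the same amount. Zic2 (ENSMUSG00000061524, chr14:122711827-122717264, plus strand) was at 33.1, 30.1, 26.1 and 29.5 CPM in 6m and at 54.0, 63.8, 59.0 and 59.0 CPM in 24m. It had the smallest spread of the 10 within each age, a coefficient of variation of 9.69% in 6m and 6.73% in 24m. Means were 29.7 ± 2.88 and 59.0 ± 3.97 CPM and the log2 fold change was 0.99 ± 0.10 (adjusted p = 5.67e-05).

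Zic1 (ENSMUSG00000032368, chr9:91240111-91247863, minus strand) was at 31.5, 24.6, 25.8 and 26.0 CPM in 6m and at 42.8, 53.7, 53.3 and 60.7 CPM in 24m, with the ages apart. The means of 27.0 ± 3.09 and 52.6 ± 7.38 CPM gave a log2 fold change of 0.96 ± 0.12 (adjusted p = 0.000211). Both genes were called in 22 of 23 alternatives, all but the stricter log2 fold change of 1. Zic1 per length was 0.629 ± 0.0526 of Zic2 in 6m and 0.617 ± 0.0704 of it in 24m. Zic4, which overlaps Zic1 on the opposite strand, was at 3.87 ± 0.791 and 3.91 ± 0.218 CPM (log2 fold change 0.02 ± 0.16, adjusted p = 0.935). Zic genes are also expressed by meninges and parts of the forebrain, and a list of 8 meningeal genes summed to 68.3 to 84.5 CPM in 6m and 65.0 to 81.5 CPM in 24m, with 0 members called by edgeR, DESeq2 or limma-voom and 1 higher at an unadjusted p under 0.05. Removal of the length trend called 1 of them lower, and scaling by library totals alone called 1 higher.

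**Figure D2:**
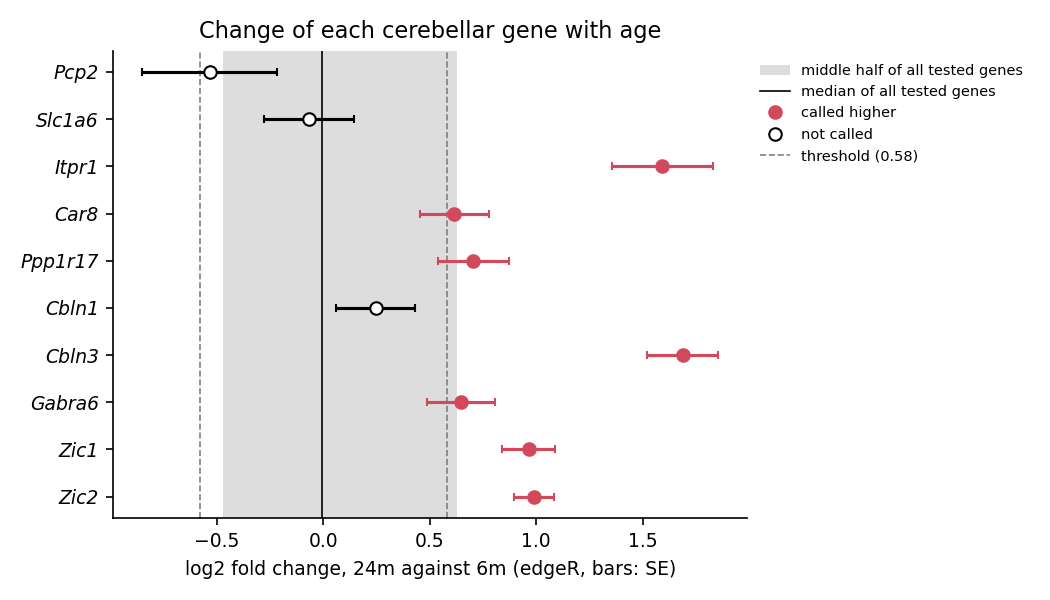
Log2 fold change of each gene from 6m to 24m by edgeR, with bars of 1 SE (n = 4 per age). Filled points were called higher and open points were not called, dashed lines are the threshold of 0.58 in size, and the grey band spans the quartiles of all 16730 tested genes. Cbln3 (1.69) and Itpr1 (1.59) lie farthest right, and Pcp2 (-0.53) is the lowest.

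Compared per length, as FPKM over the union of exons, Pcp2 was the most abundant of the 10 at both ages, at 129 ± 41.2 in 6m and 89.4 ± 42.1 in 24m. Slc1a6 (36.0 ± 8.14) and Cbln1 (28.0 ± 6.39) followed in 6m, within each other's spread. Itpr1 was next at 10.2 ± 1.30, then Zic2 (7.54 ± 0.730) and Gabra6 (6.98 ± 1.60), which did not differ beyond their spread. At the low end were Ppp1r17 (5.50 ± 0.952), Zic1 (4.74 ± 0.543), Car8 (3.79 ± 0.890) and Cbln3 (2.44 ± 0.446). In 24m Itpr1 (30.8 ± 10.5) was level with Slc1a6 (34.4 ± 9.77) and Cbln1 (33.2 ± 7.24) within their spread, and Cbln3 (7.87 ± 1.40) was above Car8 (5.81 ± 0.754), which took the last place. The other 24m values were 15.0 ± 1.01 for Zic2, 10.9 ± 1.39 for Gabra6, 9.25 ± 1.30 for Zic1 and 8.97 ± 1.81 for Ppp1r17.

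Much of the spread within an age was shared between genes. In 6m, replicate 1 was the highest library for 9 of the 10 members, all except Itpr1, and replicate 3 was the lowest for 8. In 24m, replicate 1 was the highest library for Pcp2, Car8, Ppp1r17, Cbln1 and Slc1a6 and the lowest for the other 5, Itpr1, Cbln3, Gabra6, Zic1 and Zic2. On the log2 scale it deviated from the mean of its age by between -0.76 for Itpr1 and 0.85 for Pcp2, the widest range of any library. Of the 5 high genes 4 were Purkinje cell genes and of the 5 low genes 4 were granule cell genes, with Cbln1 among the high and Itpr1 among the low as exceptions. The deviation of 6m replicate 1 ran from -0.04 for Itpr1 to 0.56 for Pcp2, with a median of 0.33. The part of these libraries in each change is given by the values without them: 7 members were called higher without 6m replicate 1, 5 without 24m replicate 1 and 7 without both, and Pcp2 was called lower in the last 2 settings.

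**Figure D3:**
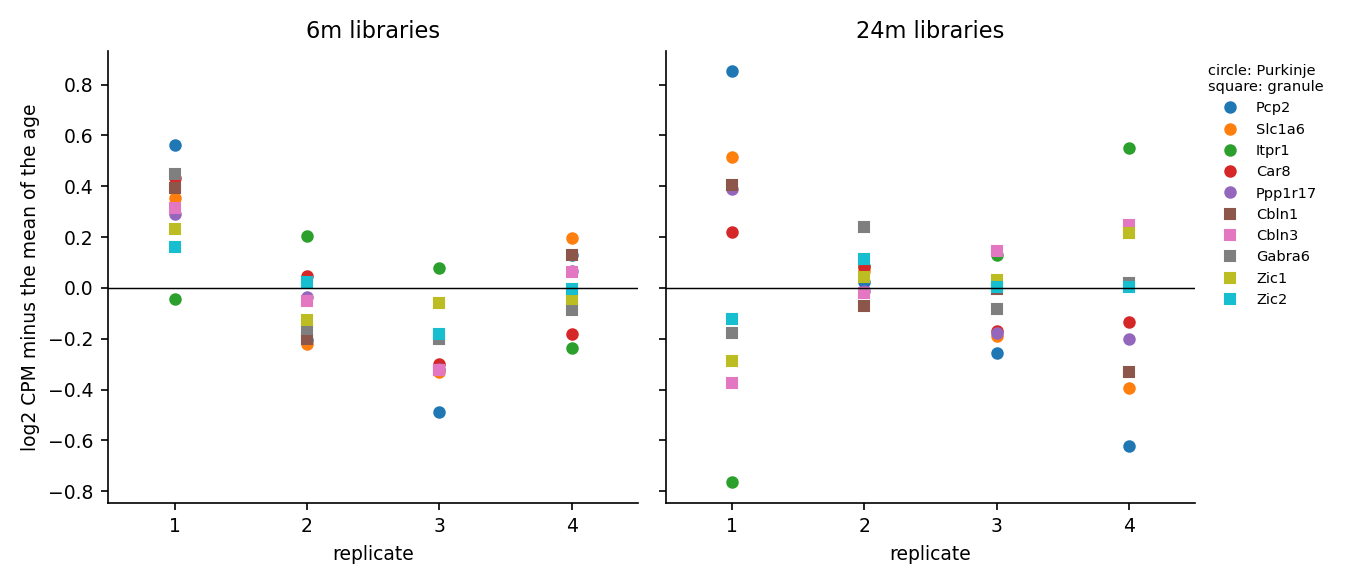
Log2 CPM of each gene in each library minus the mean of that gene in the same age, by replicate number, for 6m on the left and 24m on the right. Circles are Purkinje and squares granule cell genes. In 6m nearly all genes are high in replicate 1, and in 24m replicate 1 the genes divide into 5 high and 5 low.

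Other genes of the same cells were counted by the same rule, which called 25.3% of all tested genes higher and 18.3% lower. Of 17 other Purkinje cell genes, 8 passed the test upward and 2 downward, and the median log2 fold change was 0.55; without 24m replicate 1, 9 passed upward. Foxp2, a transcription factor, rose most (0.498 ± 0.0636 to 2.34 ± 1.08 CPM, by 2.23 ± 0.38 on the log2 scale, adjusted p = 0.00082). Its 6m libraries were all low, at 0.549 CPM or less, and whether the rise lay in Purkinje cells was not tested. The genes called lower were Pcp4, a calmodulin-binding peptide also abundant in striatum and cortex (646 ± 76.1 to 294 ± 45.4 CPM, -1.14 ± 0.13, adjusted p = 0.000118), and Pvalb, a calcium buffer shared with fast-spiking interneurons (654 ± 175 to 352 ± 165 CPM, -0.89 ± 0.30, adjusted p = 0.0258). Pvalb was not called when 6m replicate 1 or 4 or any of 24m replicates 2 to 4 was left out. It had its highest value of either age in replicate 1, as did Pcp2, with 865 CPM in the young and 592 CPM in the aged animal. Rora (log2 fold change -0.06 ± 0.22), named after its value was seen, was not called.

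Of 12 other granule cell genes, 5 passed upward and 0 downward, and the median of 0.10 was close to that of all genes. Among them were Etv1 (log2 fold change 1.10 ± 0.20, adjusted p = 0.00129), En2 (1.02) and Neurod1 (0.96), which are transcription factors, and the atypical cadherin Fat2 (0.96). The lowest was Pax6 at -0.50 ± 0.15 (adjusted p = 0.0141), under the fold threshold and the 1 lower gene at an unadjusted p under 0.05, whereas DESeq2 and limma-voom also called 0 lower. The count lower was 1 with DESeq2 on quantile-normalized counts or the GC trend removed, and 2 with the length trend removed. Without 24m replicate 1 it was called lower at -0.60. The synaptic granule cell genes Grin2c and Gabrd, named after their values were seen and encoding an NMDA and a GABA-A receptor subunit, had log2 fold changes of -0.19 ± 0.14 and -0.28 ± 0.16 and were not called.

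Of 11 genes of other cerebellar cells, Kit of molecular layer interneurons (1.94 ± 0.20) and Slc1a3 of Bergmann glia and astrocytes (1.89 ± 0.21) were called higher, and Fabp7, a fatty acid binding protein of the same glia, was called lower (-1.19 ± 0.18). With the length trend removed Fabp7 was not called lower. The median of the list was 0.27, and 3 were called higher without 24m replicate 1.

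Of the 5 cerebellin receptor genes 1 was called higher, around a median of 0.53, and 0 were lower by edgeR, by DESeq2, by limma-voom or at an unadjusted p under 0.05. Removal of the length trend gave 1 lower, and the count higher was 2 with the GC trend removed or with quantile-normalized counts and 4 when scaled by library totals alone. Without 24m replicate 1, 3 of the 5 were called higher.

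The inositol trisphosphate pathway around Itpr1 had 10 of 19 genes called higher and 0 lower, around a median of 0.72. Grm5, the metabotropic receptor of forebrain neurons, had the largest value, from 1.67 ± 0.707 to 19.3 ± 10.6 CPM (3.53 ± 0.52, adjusted p = 0.000425), and the receptor relative Itpr2 the lowest (-0.39 ± 0.14), the 1 lower gene at an unadjusted p under 0.05, with 0 called lower by DESeq2 or limma-voom. With the length trend removed 8 were higher and 3 lower, and DESeq2 on quantile-normalized counts called 1 lower. Several of these genes are expressed across the brain, so the list does not stand for Purkinje cells alone.

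Among 21 family relatives of the members, some of which are also in the lists above, 9 passed upward and 1 downward, around a median of 0.54. The 1 called lower was Car11, a relative of Car8 (-0.61 ± 0.12, adjusted p = 0.00207), which was not called without 24m replicate 4. Nor was Car11 called lower at the stricter threshold, by library totals alone or with the GC trend removed. Gpsm3, a relative of Pcp2, was also called lower without 6m replicate 2 (-0.59) or 24m replicate 1 (-0.68).

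**Figure D4:**
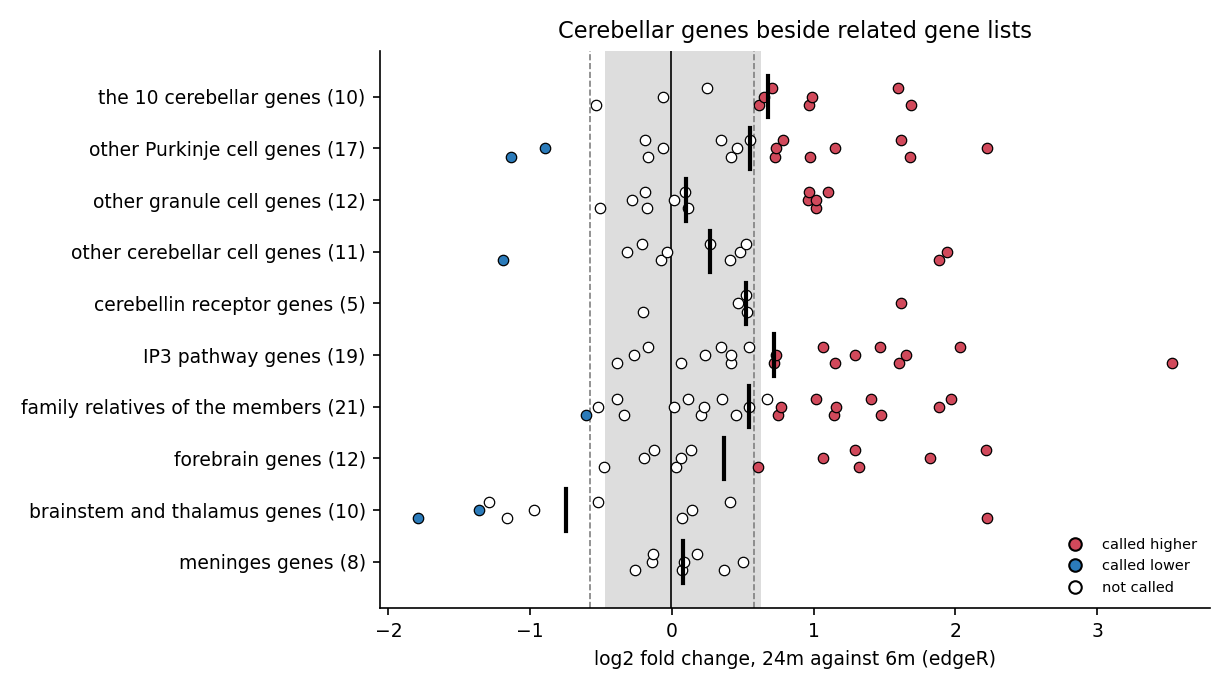
Log2 fold change of every tested gene in each list (number of genes in parentheses), 24m against 6m by edgeR. Thick bars are list medians, the grey band spans the quartiles of all tested genes, dashed lines are the threshold, and colours give the call. The median is 0.68 for the 10 cerebellar genes, 0.55 for other Purkinje, 0.10 for other granule and -0.75 for brainstem and thalamus genes.

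Genes of other regions were compared in the same way, beside 25.3% called higher and 18.3% lower among all tested genes. Of 12 forebrain genes, 6 passed upward and 0 downward, around a median of 0.37. The lowest was Emx1 (-0.48 ± 0.14), the 1 lower gene at an unadjusted p under 0.05, with 0 called lower by DESeq2 or limma-voom. Emx1 was called lower without 24m replicate 1 (-0.61). Their summed level was 762 to 856 CPM in 6m and 724 to 874 CPM in 24m, whereas that of the 10 cerebellar genes was 623 to 926 CPM in 6m and 1111 to 1312 CPM in 24m. Without Itpr1 the other 9 summed to 427 to 746 CPM in 6m and 527 to 796 CPM in 24m, and the ages overlapped. Summed levels of the other cell lists were 1806 to 2314 and 1556 to 1906 CPM for the other Purkinje cell genes and 427 to 562 and 431 to 543 CPM for the other granule cell genes.

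Of 10 brainstem and thalamus genes 1 was called higher and 2 lower, with a median of -0.75. The glycine transporter gene Slc6a5 was higher (2.22 ± 0.31), and the serotonin transporter gene Slc6a4 (-1.79 ± 0.54) and Hoxb3 (-1.36 ± 0.50) were lower. Without 24m replicate 1, Hoxb5 (-2.10) and Hoxa5 (-1.79) were called lower too, and Hoxb3 was not called when 6m replicate 1, 3 or 4 or 24m replicate 2 or 3 was left out. Hox genes, which mark the hindbrain and spinal cord behind the cerebellum, varied widely within each age. Hoxb5 was at 5.79, 0.58, 3.78 and 6.17 CPM in 6m and at 4.40, 0.74, 0.28 and 1.80 CPM in 24m. In each age replicate 1 was among the higher libraries for Hoxb5, as it was for Pcp2, and the part of tissue taken in the dissection in these results was not tested.

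**Figure D5:**
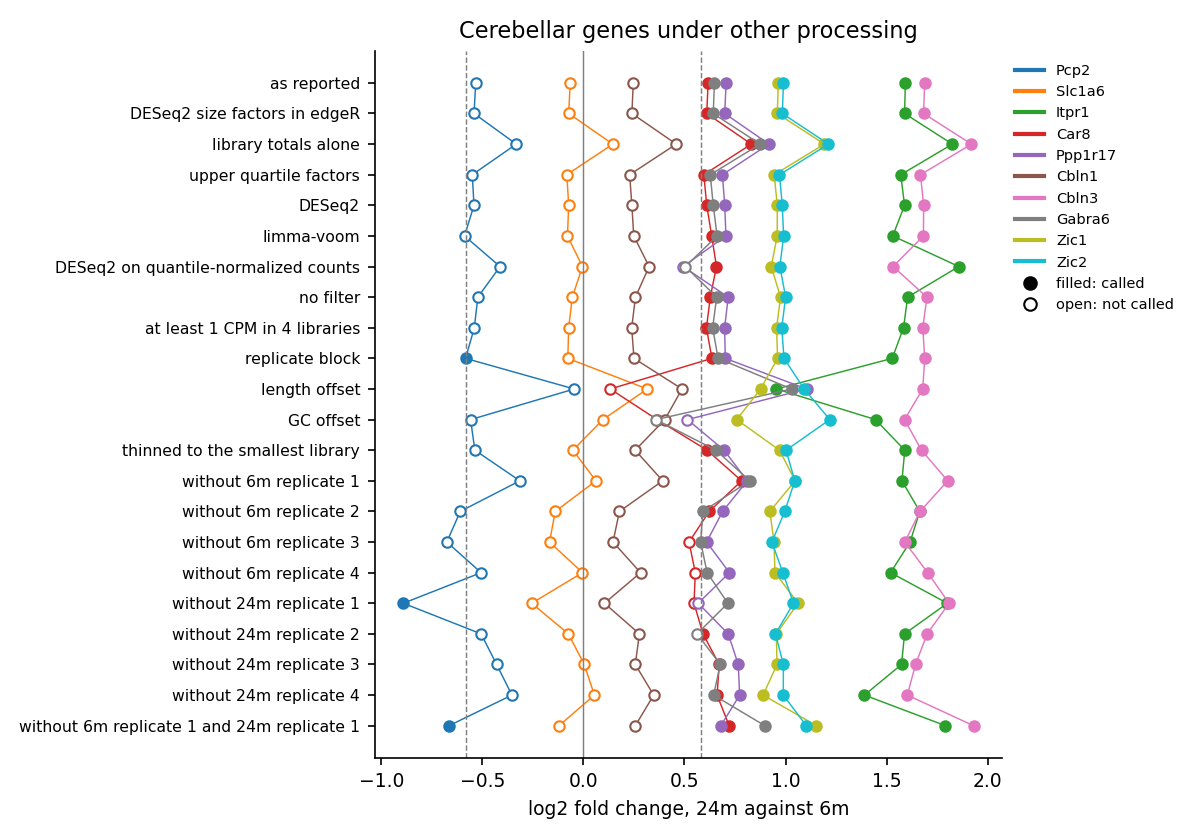
Log2 fold change of each of the 10 genes, 24m against 6m, in the reported analysis and under other processing, with 1 row for each setting. Filled points were called and open points were not, and dashed lines are the threshold of 0.58 in size. Cbln3 and Itpr1 are called in every row, whereas Car8, Ppp1r17, Gabra6 and Pcp2 cross the threshold in some.

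Genes whose profile over the 8 libraries was most like that of Gabra6, by the root mean square difference of centred log2 CPM among 13537 genes of at least 1 CPM, were Arhgef33 (0.0962), the Purkinje cell transcription factor Lhx1 (0.0990), Svep1 (0.132), Dpf3 (0.142) and Tdo2 (0.146). Of the other members, Car8 was 24th in that order, Zic1 65th and Zic2 79th, while Pcp2 was 11542nd. The genes most like Pcp2 were Steap1 (0.134), Mapk12, Asgr1, Tssk5 and Mpp4 (0.155), and Slc1a6 was 488th. These are descriptions over 8 libraries that share the age difference.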

How the data were processed

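Poly(A) RNA of 8 brain hemispheres was sequenced as directional libraries. Per the labels and the submitters' processing notes, the authors trimmed reads with Trim Galore 0.4.11, aligned them to GRCm39 with HISAT2 2.1.0 and deposited whole-number counts per gene, with no normalization or pooling; gene assignment was by featureCounts, whose strand and multimapping settings were not given in the sources used here. Counts were tested with edgeR 4.0.16 (quasi-likelihood, TMM factors, R 4.3.3) over the 16730 genes that exceeded 5 counts in 4 or more libraries, with Benjamini-Hochberg adjustment over all of them. A call needed both an adjusted p no higher than 0.05 and a change of 0.58 in size on the log2 scale, as in the study. SE was derived from the F statistic as the log2 value divided by its square root. Log2 CPM used a prior count of 2. Lengths, positions and upstream windows came from GENCODE M39. Members and lists were chosen with earlier results of these data known. All members were named, with the extremes of each list and the 5 nearest profiles to Gabra6 and Pcp2; some list genes are not reported here. Replicates of one age differed by a chi-square of 8.18 to 417 per degree of freedom, so each library counted as 1 replicate. On data simulated for 24m against 6m over 16730 genes, with 200 changed, 98.0% of those raised by a log2 value of 1 and 95.0% of those lowered by it were recovered, with 8 unchanged genes called. The changed genes were drawn from well-counted genes, and every gene had the common dispersion, a biological coefficient of variation of 0.18. No shift in library composition was simulated. These rates do not cover members of wider spread, such as Pcp2 (31.9% in 6m and 47.1% in 24m). Alternatives covered scaling, filters, thresholds, DESeq2 1.42.0, limma-voom (limma 3.58.1), smoothed length and GC offsets, thinning, a replicate block and each library left out.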

Additional observations from a re-analysis of the deposited data

Results flagged for a closer look

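Within groups of 4 libraries, 3 values lay farther from their nearest neighbour than Dixon's 95% critical value for the gap over the range allows. Chance passes that limit in about 1 of 20 groups, and 60 groups were tested. Gabra6 in 6m replicate 1 was at 23.4 CPM with the other 6m libraries at 14.9 to 16.1 CPM, a ratio of 0.859. Kit in 6m replicate 4 was at 7.38 CPM with the others at 9.54 to 9.87 CPM (0.866), and Slc6a5 in 24m replicate 4 was at 6.60 CPM with the others at 2.81 to 3.21 CPM (0.895).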

How the results depend on the processing

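Cbln3 and Itpr1 were called higher under all 23 alternatives, and Zic1 and Zic2 under all but the stricter threshold. Scaling by library totals alone moved the median of all genes to 0.21 and the share of calls that were higher from 58.1% to 75.7%, with 5449 higher and 1746 lower, and turned Slc1a6 to 0.15. In that setting called lower were 1 other Purkinje, 0 family relatives and 1 brainstem and thalamus gene, and called higher 5 other cerebellar, 4 cerebellin receptor and 1 meninges gene. Without a fold threshold 4999 genes were lower, as were 1 other granule, 2 other cerebellar, 1 inositol trisphosphate pathway, 3 family and 1 forebrain gene, and 4 other cerebellar and 2 receptor genes were higher. At an adjusted p of 0.01 and a log2 fold change of 1, 2403 genes were higher and 839 lower, with 2 members, 4 other Purkinje and 3 other granule genes higher and 1 other Purkinje, 0 family and 0 brainstem and thalamus genes lower. DESeq2 on quantile-normalized counts called 1 other granule, 1 pathway and 2 family genes lower and 2 receptor genes higher, and 3573 genes higher and 3891 lower in all. The length offset called 2 other granule, 0 other cerebellar, 1 receptor, 3 pathway and 1 meninges gene lower and turned Slc1a6 to 0.32. The GC offset called 4 members and 2 receptor genes higher and 1 other granule and 0 family genes lower, and turned Slc1a6 to 0.10. The cause of these differences was not tested.

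Leaving out each library in turn gave 5 to 7 members higher and 0 to 1 lower, 1 to 2 other Purkinje, 0 to 1 other granule, 0 to 2 family, 0 to 1 forebrain and 1 to 4 brainstem and thalamus genes lower, and 1 to 3 receptor genes higher. Slc1a6 ranged from -0.26 to 0.062, and was 0.062 without 6m replicate 1, 0.0042 without 24m replicate 3 and 0.05 without 24m replicate 4. Leaving out both replicates numbered 1, chosen after seeing the data, gave 1 member, 2 family and 1 forebrain gene lower and 4 other cerebellar and 3 receptor genes higher. The labels number the replicates within each age and give no pairing of animals across ages. Same-numbered libraries of the 2 ages correlated in their deviations at 0.27, 0.14, 0.08 and -0.35, which cannot settle whether they shared a batch. With the replicate block 4112 genes were higher and 3130 lower, and 1 member was lower, Pcp2 at -0.58 (adjusted p = 0.0262). Not every library correlated best with its own number. At 564 counts or more per member and library, depth limited these results less than the 4 animals per age.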
